A study of Mus musculus with 87 samples.

Results

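The Eif1a-like cluster of mouse chromosome 12 is a run of multicopy genes, and its members were defined here by position, as the gene rows that lie wholly within chr12:87500000-88350000 of GRCm38, a stretch of 850 kb. The rule took 83 of the 55487 gene rows in each count table and used no measured value. By sequence comparison between the rows, 33 members fell into a family led by the pseudogene Gm3742, and 19 were similar to Eif1ax, the X-linked gene of translation initiation factor 1A. These 19 are called Eif1a-like below. A further 8 formed a family with Gm16381, which RefSeq lists as ubiquitin-like 5-like, and 8 a family with Gm2099. The remaining members were 4 rows like Gm48150, 3 like Gm21559, the 3 oogenesin genes Oog1, Gm2042 and Gm10436, the pair Gm1995 and Gm7104, and 3 rows without a relative in the window.

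The study asked how far 2 homeobox transcription factors, OBOX4 and DUX, act on the genes that switch on when the mouse embryo starts its own transcription. RNA-seq of the cluster was available in 41 libraries, and CUT&RUN peak lists gave the binding of both factors and 3 histone marks. A mouse embryonic stem cell (mESC) line of the 129/Ola background with a doxycycline-inducible TRE-3xFLAG-Obox4 transgene was sequenced at 0, 12 and 48 h, with 3 libraries a time point, and all 9 libraries carry the transgene. Embryos of the B6D2F1 cross from females of 8 weeks were injected as zygotes with antisense oligonucleotides (ASOs) and collected as pools of 30 at the middle 2-cell (2C) stage. Their 5 groups of 2 libraries are 40 µM scramble ASO, 20 µM anti-Obox4 ASO (Obox4 KD), 20 µM anti-Dux ASO (Dux KD), the 40 µM mixture of both (DKD), and that mixture with 100 ng/µL of codon-optimized Obox4 mRNA (rescue). The single knockdowns thus received less total ASO than scramble, and this difference cannot be told apart from the target. Morulae of the same cross, injected with the same 40 µM of ASO, had 2 scramble and 2 DKD libraries. Single blastomeres came from 2C-embryos that all lacked Dux (Dux KO, B6D2F1), and the sister cell gave the Obox4 genotype, with 2 libraries each of Obox4 WT, Het and KO. The last experiment compared mESCs of 4 genotypes on the 129/Ola background, WT, Obox4 KO, Dux KO and the double KO (DKO), with 3 libraries each, after treatment of all of them with pladienolide B (PlaB), which blocks splicing. Each KO line was grown from a single-cell clone and the DKO line was made from the Obox4 KO line, so p-values between lines measure the spread of these libraries and do not separate genotype from clone.

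Zygotic genome activation in mice begins in the late zygote and becomes strong at the 2C stage, when a set of genes and endogenous retroviruses is transcribed for a short time. DUX is a homeobox factor of this window whose targets include MERVL elements, and many of its target genes, including the tandem Eif1a-like copies, are used as markers of 2C-like cells among mESCs. Factor 1A itself helps to place the small ribosomal subunit at the start codon, while oogenesins are leucine-rich repeat proteins made in oocytes and carried into the early embryo. In mESCs, such inhibition of splicing moves cells toward a state with 2C transcripts.

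The coding sequences of the copies are nearly alike. Of the 19 Eif1a-like members, 15 kept an open frame of 144 codons, 435 bases with the stop codon, the same length as that of Eif1ax. These frames were 83.7 to 85.3% identical to the frame of Eif1ax, while any pair among them differed at 0 to 19 bases, with a median of 11. The other 4 were shorter frames: 21 codons in Gm48389, 27 in Gm48388, 21 in Gm8607 and 104 in Gm10264. The first 90 coding bases of Eif1ax and of 2 members follow, to show how far the copies differ from the gene they resemble and from each other. Capitals mark bases that differ from Eif1ax.
Eif1ax: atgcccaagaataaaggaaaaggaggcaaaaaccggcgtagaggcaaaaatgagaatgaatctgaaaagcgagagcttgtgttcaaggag
Gm8300: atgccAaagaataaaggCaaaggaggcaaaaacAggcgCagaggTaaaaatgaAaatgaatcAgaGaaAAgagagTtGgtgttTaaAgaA
Gm2016: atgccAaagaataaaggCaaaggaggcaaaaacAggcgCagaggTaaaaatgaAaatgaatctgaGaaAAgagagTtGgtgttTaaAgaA
Gm8300 differed from Eif1ax at 15 of these 90 bases and at 65 of the whole frame, Gm2016 at 14 and 65, and Gm5662 at 15 and 66. Over these 90 bases Gm8332 and Gm5662 were identical to Gm8300.

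Unique reads were used for the tests, since the authors discarded reads with several alignments from the gene tables of all experiments but the blastomeres. In 2C-embryos the unique reads of the 19 Eif1a-like members were 62.2 to 69.2% of the reads that a second table assigned by splitting multi-mapping reads. That share was 12.8% over all 2C libraries for BB287469 and 10.1% for Gm4027, whose coding frames are identical to each other, so values of single copies are less certain than their sum. Reads were found for 54 of 83 members in the induction series, 80 in 2C-embryos, 67 in morulae, 65 in blastomeres and 72 in PlaB mESCs. The filter on low counts passed 17, 57, 28, 41 and 33 of the 83. A member could pass through the one group in which it was high, so the counts of called members below are descriptions. Values are CPM, the usual depth-corrected unit, here a gene's reads relative to those of the tested genes after TMM scaling, with no correction for gene length. A gene counted as called in edgeR's quasi-likelihood test when its adjusted p (Benjamini-Hochberg, over all genes tested) was 0.01 or less and its log2 fold change was 1 or more in either direction. Every adjusted p and SE is from that test.

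Total counts per library were 14283083 to 104864947 reads. The lowest was PlaB mESC library DKO 3, against 32053122 and 40410712 reads in the other DKO libraries. Whether the targeted genes were low depended on the rows used. In 2C-embryos the row Obox4-ps35, which held most of the Obox4 reads, went against the label, with 56.2 and 58.4 CPM in scramble and 64.0 and 80.4 CPM in Obox4 KD. The other 38 Obox4 rows, a split chosen after the values were seen, had 12.2 and 17.6 CPM in scramble and 3.94 and 3.04 CPM in Obox4 KD, while Duxf3 had 6.49 and 7.69 CPM in scramble and 3.66 and 1.93 CPM in Dux KD. The same 38 rows had 5.00 and 3.01 CPM in Dux KD, so these rows and Duxf3 were both low there. Obox4-ps35 had 47.4 and 44.6 CPM in Dux KD. In PlaB mESCs the 38 rows had 0.0433 to 0.0824 CPM in Dux KO, against 12.2 to 12.9 CPM in WT. Obox4-ps35 had 0.0387 to 0.0866 CPM in Dux KO and 3.40 to 4.09 CPM in WT. Dux KO mESCs thus lacked most Obox4 RNA as well. Duxf3 was at 0 CPM in all 6 blastomere libraries and in all Dux KO and DKO mESC libraries. Exceptions were a morula library and some libraries labelled Obox4 KO. The morula library labelled DKD 2 had 6.00 CPM of Duxf3, against 0.0915 to 0.285 CPM in the other 3. The blastomere library labelled Obox4 KO 1 had 8.92 CPM in the 38 rows, the most of its experiment. Its Obox4-ps35 level, 10.5 CPM, was the lowest of that experiment, while the library labelled Obox4 KO 2 had 27.9 CPM of Obox4-ps35. Obox4 KO mESC library 3 had 8.00 CPM in the 38 rows, against 3.13 and 2.34 CPM in the other 2 and 12.2 to 12.9 CPM in WT. With split multi-mapping reads the same rows had 12.7 CPM in that library, 3.23 and 2.83 CPM in the other two and 121.2 to 125.3 CPM in WT, so its distance from WT differed between the tables. Rescue libraries had a smaller share of genes with an odd count than the other 2C libraries, so a difference in how reads were counted cannot be told apart from the rescue. Counts of called members that rest on these libraries are given with and without them. Fold changes and group means of single members include them.

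In 2C-embryos, Eif1a-like transcripts were most abundant with scramble ASO, lower with Obox4 KD, lower still with Dux KD and lowest with DKD. The summed CPM of the 19 Eif1a-like members was 930.2 and 890.0 in the 2 scramble libraries and 586.1 and 522.8 in Obox4 KD. It was 193.2 and 194.2 in Dux KD, 99.7 and 115.3 in DKD, and 228.0 and 350.5 in rescue. No 2 of these groups overlapped, and each group lay apart from the next one in this order by more than the gap between its own libraries, except that rescue library 1 was closer to Dux KD than to rescue library 2. In bulk samples fewer cells that express a gene and less RNA of it per cell cannot be told apart. The X-linked translation factor gene Eif1ax, used above for the sequence comparison, had 28.9 and 27.4 CPM in scramble and 25.3 and 25.3 CPM in Obox4 KD. It had 25.2 and 27.2 CPM in Dux KD, 25.02 and 24.55 CPM in DKD and 28.8 and 28.8 CPM in rescue.

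**Figure D1:**
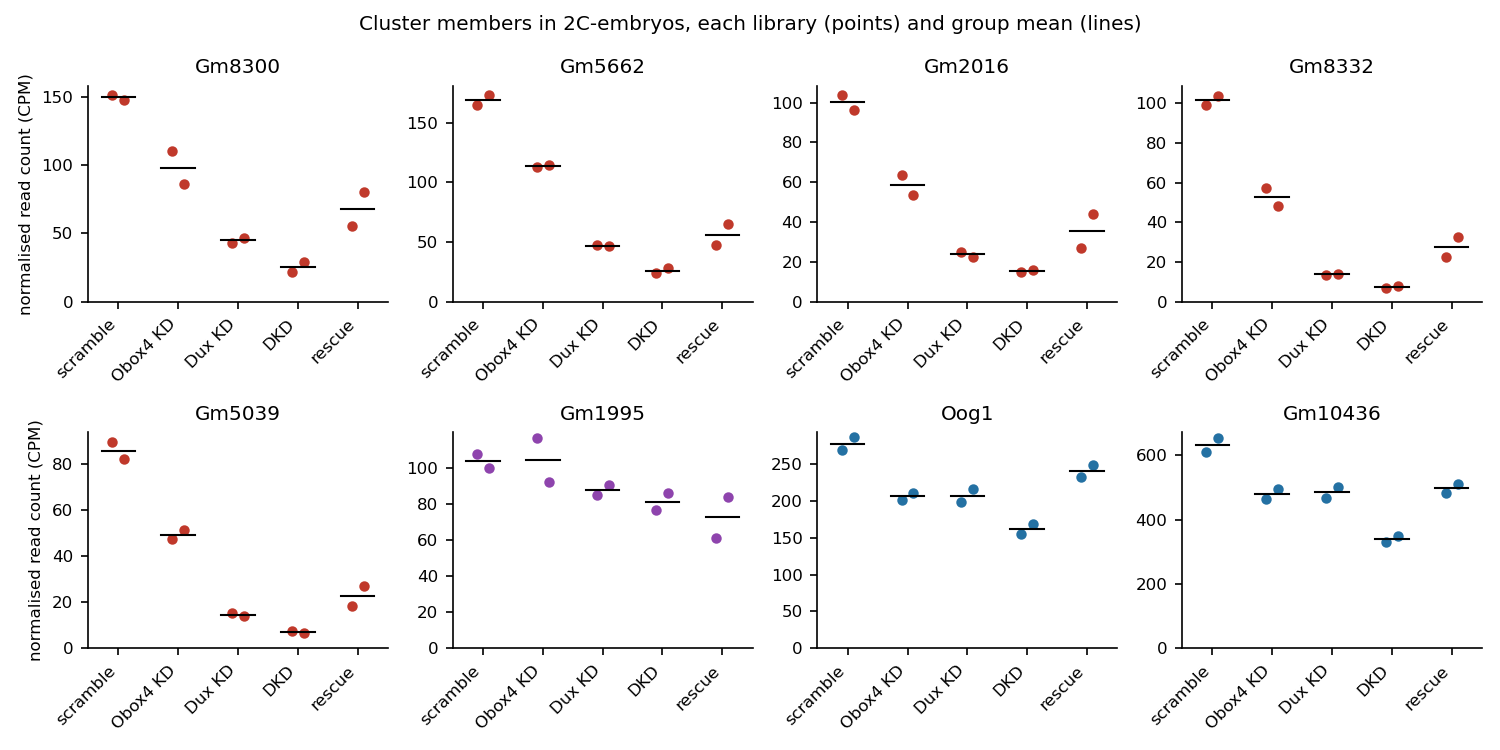
CPM of 8 members of the cluster in 2C-embryos (y axis) by injected group (x axis), with points for the 2 libraries of each group and a line at their mean. In the 5 Eif1a-like panels (Gm8300, Gm5662, Gm2016, Gm8332, Gm5039) scramble is highest and DKD lowest. Gm1995, Oog1 and Gm10436 differ less between groups in proportion to their level.

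Gm8300 (chr12:87514316-87518266, plus strand, 2 exons), listed by RefSeq as an initiation factor 1A-like gene, had 151.4 and 147.9 CPM in scramble, 110.5 and 85.9 CPM in Obox4 KD, 43.4 and 46.7 CPM in Dux KD, 21.7 and 29.1 CPM in DKD and 55.7 and 80.2 CPM in rescue. Gm5662 (chr12:88270640-88274500, minus strand, 2 exons) had 164.6 and 173.2 CPM in scramble, 113.2 and 114.3 CPM in Obox4 KD, 47.2 and 46.4 CPM in Dux KD, 23.75 and 27.96 CPM in DKD and 47.3 and 65.4 CPM in rescue. Both genes kept the order of the sum, with no overlap between scramble, Obox4 KD, Dux KD and DKD. Gm2016 (chr12:87874072-87877859, plus strand) had 103.9 and 96.4 CPM in scramble, 63.6 and 53.7 CPM in Obox4 KD, 25.1 and 22.5 CPM in Dux KD, 14.8 and 16.1 CPM in DKD and 27.2 and 43.9 CPM in rescue. Gm8332, a row that covers only the coding exon (chr12:88249666-88250100, minus strand), had 99.1 and 103.8 CPM in scramble, 57.1 and 48.0 CPM in Obox4 KD, 13.5 and 14.2 CPM in Dux KD, 7.14 and 8.03 CPM in DKD and 22.7 and 32.5 CPM in rescue. Gm5039 (chr12:88320122-88324026, minus strand) had 89.6 and 82.1 CPM in scramble, 47.5 and 51.2 CPM in Obox4 KD, 15.3 and 14.1 CPM in Dux KD, 7.34 and 6.52 CPM in DKD and 18.4 and 27.1 CPM in rescue. For all of these 5 genes every Dux KD library lay below every Obox4 KD library.

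With Obox4 KD, 2 of the 57 tested members were called, both lower and both Eif1a-like, while 0.182% of all tested genes were called lower. Gm8607 fell from 16.7 and 16.7 CPM to 5.36 and 4.87 CPM, a log2 fold change of -1.71 (SE 0.34, adjusted p = 0.0060), and Gm21936 fell from 57.3 and 47.7 CPM to 22.9 and 27.7 CPM, a log2 fold change of -1.06 (SE 0.13, adjusted p = 0.00021). The other Eif1a-like members had smaller differences: the median log2 fold change of the 19 was -0.77, and 17 of them were below 0. Gm8332 (log2 fold change -0.95, SE 0.13, adjusted p = 0.00059), Gm5039 (-0.80, SE 0.14, adjusted p = 0.0025) and Gm5662 (-0.57, SE 0.12, adjusted p = 0.0071) were under the adjusted p threshold but short of the fold threshold. Leaving out 1 library at a time gave 0 or 1 called member, with 0 when scramble library 1 was left out.

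With Dux KD, 23 of the 57 tested members were called, 20 lower and 3 higher, against 1.05% of all genes lower and 3.25% higher. Of the 20, 18 were Eif1a-like. The largest falls were in Gm8607 (log2 fold change -4.21, SE 0.41, adjusted p = 3.0e-06), Gm6803 (-3.77, SE 0.32, adjusted p = 6.9e-07), Gm21319 (-3.44, SE 0.29, adjusted p = 5.3e-07) and Gm2056 (-3.27, SE 0.29, adjusted p = 9.6e-07). In CPM, Gm6803 went from 40.9 and 33.4 in scramble to 2.81 and 2.60 in Dux KD. The remaining Eif1a-like member, Gm10264, has the shortened frame of 104 codons and had 0.857 and 1.11 CPM in scramble and 0.374 and 0.668 CPM in Dux KD. Gm8300 had a log2 fold change of -1.73 (SE 0.16, adjusted p = 1.0e-06) and Gm8332 one of -2.87 (SE 0.15, adjusted p = 4.0e-09), and both were called in 4 of 4 fits that left out a library of either group.

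With DKD, 27 of the 57 were called, 21 lower and 6 higher, against 3.16% of all genes lower and 8.42% higher. Again 18 of the 19 Eif1a-like members were lower, with a median log2 fold change of -3.17 over the 19 against 0.03 over all genes tested, and Gm10264 was not called. The largest falls were in Gm8607 (log2 fold change -5.11, SE 0.44, adjusted p = 1.1e-07), Gm6803 (-4.82, SE 0.35, adjusted p = 1.7e-08), Gm21319 (-4.13, SE 0.30, adjusted p = 1.7e-08) and Gm2022 (-4.03, SE 0.30, adjusted p = 2.8e-08). Gm8607 had 0.407 and 0.590 CPM in DKD, the lowest group. These comparisons share the scramble libraries, so they are not independent of each other.

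DKD against Dux KD compares 2 groups of ASO-treated embryos without the scramble libraries and asks what the anti-Obox4 ASO adds to the anti-Dux ASO, at a higher total dose. Of the 57 members 5 were called, 4 lower and 1 higher, against 0.377% of all genes in each direction. All 19 Eif1a-like members had log2 fold changes below 0, with a median of -0.86, and 4 of them were called: Gm48388 (-1.58, SE 0.24, adjusted p = 0.00049), BB287469 (-1.51, SE 0.20, adjusted p = 0.00017), Gm4027 (-1.21, SE 0.25, adjusted p = 0.0044) and Gm5039 (-1.08, SE 0.16, adjusted p = 0.00031). BB287469 had 5.20 and 4.97 CPM in Dux KD and 1.89 and 1.64 CPM in DKD, with no overlap. Gm4027 was called in none of the 4 fits that left out a library, and the number of called members ran from 2, without DKD library 1, to 5.

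Rescue libraries held more Eif1a-like RNA than DKD libraries but less than scramble libraries. Their Duxf3 level, 8.16 and 5.78 CPM, was also above the 3.86 and 2.92 CPM of DKD. The part of this difference in the rescue values was not tested. Against DKD, 18 of 57 members were called, 15 higher and 3 lower (1.1% of all genes higher and 3.27% lower), and 14 of the 15 were Eif1a-like. The largest rises were in Gm8607 (log2 fold change 2.82, SE 0.45, adjusted p = 0.00018), Gm6803 (2.34, SE 0.35, adjusted p = 9.4e-05), Gm2022 (2.07, SE 0.30, adjusted p = 7.5e-05) and Gm21319 (1.91, SE 0.30, adjusted p = 0.00015). Gm8607 had 1.58 and 5.38 CPM in rescue, so its 2 rescue libraries lay far apart. Against scramble, 22 members were called, 21 lower and 1 higher (1.24% of all genes lower and 1.43% higher), with 18 Eif1a-like members lower and a median log2 fold change of -1.88 over the 19. The largest falls were in Gm48389 (-2.56, SE 0.51, adjusted p = 0.0034), Gm6803 (-2.48, SE 0.29, adjusted p = 2.4e-05), Gm2056 (-2.33, SE 0.26, adjusted p = 1.9e-05) and Gm8607 (-2.29, SE 0.34, adjusted p = 0.00027). Leaving both rescue libraries out of the model gave 3 called members with Obox4 KD, 25 with Dux KD, 30 with DKD and 7 for DKD against Dux KD.

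**Figure D2:**
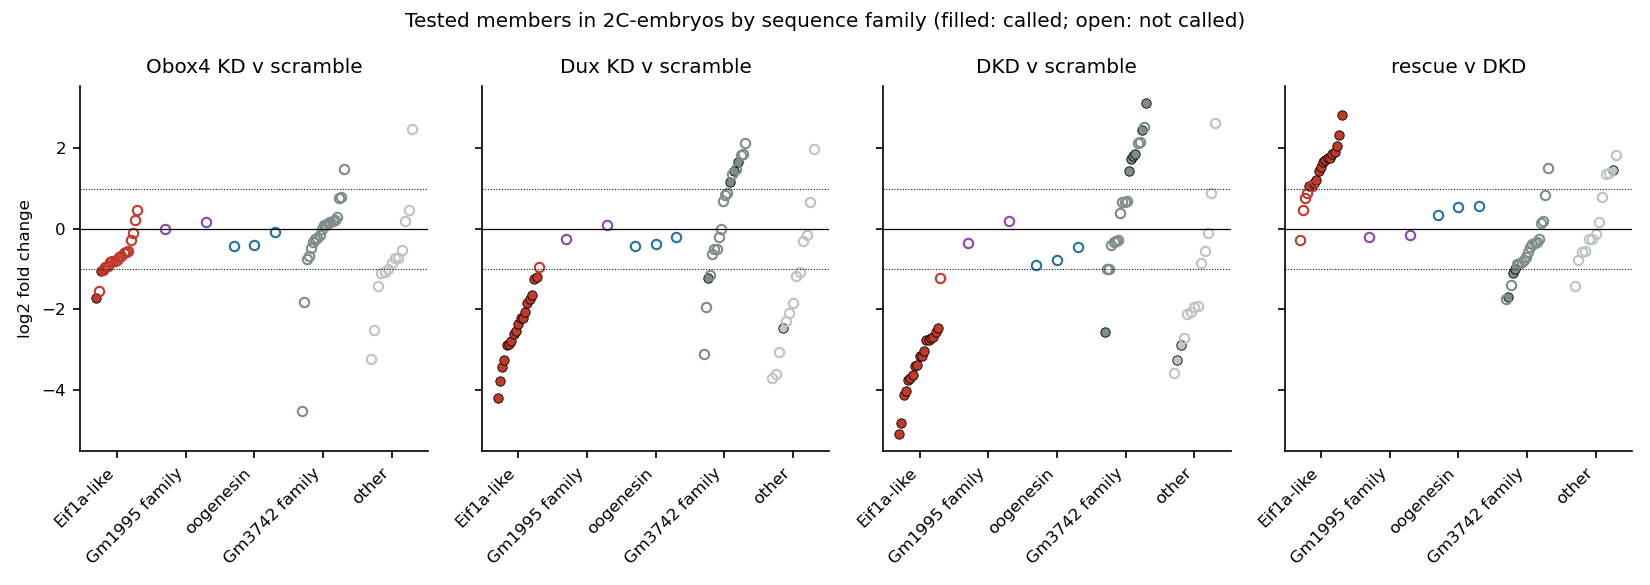
Log2 fold change (y axis) of the tested members of the cluster in 4 comparisons of 2C-embryos, by family (x axis); filled points were called and open points were not, and dotted lines mark log2 fold changes of -1 and 1. Eif1a-like members lie below 0 in the Dux KD and DKD panels (medians -2.37 and -3.17) and mostly above 0 for rescue against DKD (median 1.53), while the oogenesins lie between -0.89 and 0.57 in all 4 panels.

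Outside the Eif1a-like family, Gm21939, a row without a relative in the window, fell from 37.7 and 38.2 CPM in scramble to 8.96 and 4.38 CPM in Dux KD (log2 fold change -2.48, SE 0.27, adjusted p = 8.1e-06) and 3.99 and 3.87 CPM in DKD (-3.27, SE 0.28, adjusted p = 1.0e-07). The other such members called lower were Gm5442 with Dux KD and Gm8587 and Gm21569 with DKD, while Gm1995 and Gm7104 were not called in any 2C comparison. Gm1995 (chr12:87861366-87863967, plus strand), a transcribed pseudogene that lies between Eif1a-like copies, had 107.7 and 99.8 CPM in scramble, 116.6 and 91.8 CPM in Obox4 KD, 85.0 and 90.5 CPM in Dux KD, 76.5 and 85.8 CPM in DKD and 60.9 and 83.9 CPM in rescue. Its log2 fold change was -0.24 (SE 0.13, adjusted p = 0.21) with Dux KD and -0.36 (SE 0.13, adjusted p = 0.038) with DKD, neither of them called. Gm7104 (chr12:88284538-88287069, minus strand), its relative and also a transcribed pseudogene, had 38.8 and 35.4 CPM in scramble and 38.6 and 41.2 CPM in Dux KD, so these groups overlapped. Its log2 fold change with DKD was 0.18 (SE 0.09, adjusted p = 0.14).

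The oogenesin genes were abundant in every 2C library and no comparison called them. Oog1 (chr12:87602688-87608850, plus strand) had 268.7 and 286.4 CPM in scramble, 201.1 and 211.5 CPM in Obox4 KD, 198.4 and 216.0 CPM in Dux KD, 155.8 and 168.5 CPM in DKD and 232.5 and 248.9 CPM in rescue. Gm10436 (chr12:88175589-88182108, minus strand) had 608.6 and 654.4 CPM in scramble, 463.5 and 494.2 CPM in Obox4 KD, 467.9 and 502.5 CPM in Dux KD, 331.9 and 349.0 CPM in DKD and 484.0 and 511.3 CPM in rescue. In both genes DKD was the lowest group and did not overlap any other, yet the log2 fold change against scramble was -0.78 (SE 0.07, adjusted p = 3.6e-07) for Oog1 and -0.89 (SE 0.07, adjusted p = 2.5e-08) for Gm10436, short of the fold threshold. Gm2042 (chr12:87954080-87960683, plus strand) had 211.9 and 227.7 CPM in scramble and 156.0 and 164.7 CPM in DKD. The list of 9 maternal markers, of which Oog1 is one, moved with them: its sum was 2715 and 2822 CPM in scramble and 1546 and 1721 CPM in DKD. Its part in the oogenesin values was not tested.

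Some members of the Gm3742 family were higher after knockdown. Its summed unique reads were 32.2 and 25.4 CPM in scramble, 24.4 and 26.8 CPM in Obox4 KD, 43.7 and 38.0 CPM in Dux KD, 54.2 and 64.9 CPM in DKD and 30.3 and 37.9 CPM in rescue. Of the 20 tested family members, 6 were called higher and 1 lower with DKD, where 8.42% of all genes were called higher, and 3 higher and 1 lower with Dux KD (3.25% of all genes higher). The other 13 and 16 were not called. Gm18626 rose from 0.306 and 0.493 CPM in scramble to 2.95 and 4.00 CPM in DKD (log2 fold change 3.14, SE 0.38, adjusted p = 5.2e-06). Gm3742 itself rose from 4.74 and 2.63 CPM to 12.1 and 14.2 CPM (1.81, SE 0.27, adjusted p = 4.2e-05), and Gm18627 (2.47, SE 0.63, adjusted p = 0.0050) and Gm21038 (1.87, SE 0.29, adjusted p = 6.2e-05) rose as well. With Dux KD the risers were Gm18626 (1.67, SE 0.41, adjusted p = 0.0083), Gm21038 (1.45, SE 0.29, adjusted p = 0.0020) and Gm3742 (1.17, SE 0.27, adjusted p = 0.0056). Gm18626 was also the member called higher in DKD against Dux KD (1.47, SE 0.32, adjusted p = 0.0064) and in rescue against scramble (2.27, SE 0.39, adjusted p = 0.00091). Lower in rescue than in DKD were Gm21039 (-1.70, SE 0.46, adjusted p = 0.0097), Gm46992 (-1.09, SE 0.22, adjusted p = 0.0011) and Gm21038 (-1.01, SE 0.26, adjusted p = 0.0075). RefSeq lists these rows as pseudogenes and their reads are few, so these values rest on less data than those of the Eif1a-like members.

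Gm16381, the ubiquitin-like 5 copy, could hardly be measured with unique reads. It had 1.499 and 1.192 CPM in scramble and 0.258 to 1.05 CPM in the other 2C libraries, while the table with split multi-mapping reads gave it 35.2 and 31.4 CPM in scramble. The unique reads of its family were 2.86 to 6.02% of the split reads. With unique reads it was called lower in rescue than in scramble (log2 fold change -1.98, SE 0.42, adjusted p = 0.0051), but with split reads this difference was -0.66 (adjusted p = 0.033).

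Induction of the Obox4 transgene in mESCs was followed by higher levels of Eif1a-like transcripts in every library. The summed CPM of the 19 members was 24.0, 15.1 and 16.5 at 0 h, 50.8, 80.1 and 74.5 at 12 h and 153.8, 98.8 and 99.2 at 48 h. The 3 time points did not overlap, and the 48 h values stayed below those of scramble 2C-embryos, which were fitted in a separate model. Gm8300 had 3.26, 2.17 and 2.77 CPM at 0 h, 9.969, 12.60 and 11.95 CPM at 12 h and 25.2, 17.0 and 16.0 CPM at 48 h. Gm5662 had 5.83, 3.64 and 3.72 CPM at 0 h, 12.2, 20.2 and 19.9 CPM at 12 h and 32.8, 19.9 and 22.9 CPM at 48 h. Every induced library was above every uninduced one in both genes, but the 12 h and 48 h values of Gm5662 overlapped. Gm2016 had 4.603, 2.698 and 3.196 CPM at 0 h and 28.4, 18.8 and 17.5 CPM at 48 h, and Gm8332 had 2.57, 1.96 and 2.15 CPM at 0 h and 20.2, 13.7 and 14.1 CPM at 48 h. Gm1995 had 0.407, 0.631 and 0.457 CPM at 0 h, 1.35, 1.07 and 0.761 CPM at 12 h and 3.95, 3.31 and 3.79 CPM at 48 h. It thus stayed low throughout. Duxf3 also rose, from 0.652, 0.280 and 0.326 CPM at 0 h to 1.51, 1.53 and 0.792 CPM at 48 h, with no overlap. At 12 h it had 0.731, 0.455 and 1.25 CPM, which overlapped 0 h. The part of Duxf3 in the Eif1a-like values was not tested.

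At 12 h, 6 of 17 tested members were called, all higher and all Eif1a-like, against 0.612% of all genes higher. The largest rises were in Gm2035 (log2 fold change 2.54, SE 0.33, adjusted p = 0.0022), Gm2022 (2.30, SE 0.31, adjusted p = 0.0029), Gm8300 (2.08, SE 0.22, adjusted p = 0.00063) and Gm5662 (1.99, SE 0.27, adjusted p = 0.0028). Gm8300 was the only one of the 6 called in all 6 fits that left out a library, and the count fell to 1 without 0 h library 2 or 0 h library 3, to 2 without 12 h library 2 and to 3 without 12 h library 3. At 48 h, 14 of 17 were called, all higher, against 3.37% of all genes higher: the 12 tested Eif1a-like members, Gm1995 and Gm7104. The largest rises were in Gm48388 (4.45, SE 0.83, adjusted p = 0.0055), Gm2056 (3.43, SE 0.68, adjusted p = 0.0077), Gm7104 (3.40, SE 0.64, adjusted p = 0.0062) and Gm2035 (3.02, SE 0.32, adjusted p = 0.00021). The count was 9 without any one 0 h library and 10 or 11 without any one 48 h library. Gm8300 rose by 2.83 on the log2 scale (SE 0.22, adjusted p = 3.7e-05) and Gm1995 by 2.87 (SE 0.27, adjusted p = 9.7e-05). Between 12 h and 48 h edgeR called 0 members (0.0376% of all genes), and DESeq2 called 2. At an unadjusted edgeR p under 0.05 were 9 of 17 members, against 1577 of all 18625 genes. Both comparisons with 0 h share those libraries. Of the fibroblast markers, 3 of 6 were tested and 2 were called higher at 48 h, with a summed CPM of 1.02 to 2.12 at 0 h and 5.75 to 6.91 at 48 h. Their part in the result was not tested. The pluripotency markers summed to 6942 to 7470 CPM at 0 h and 6872 to 7699 CPM at 48 h.

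**Figure D3:**
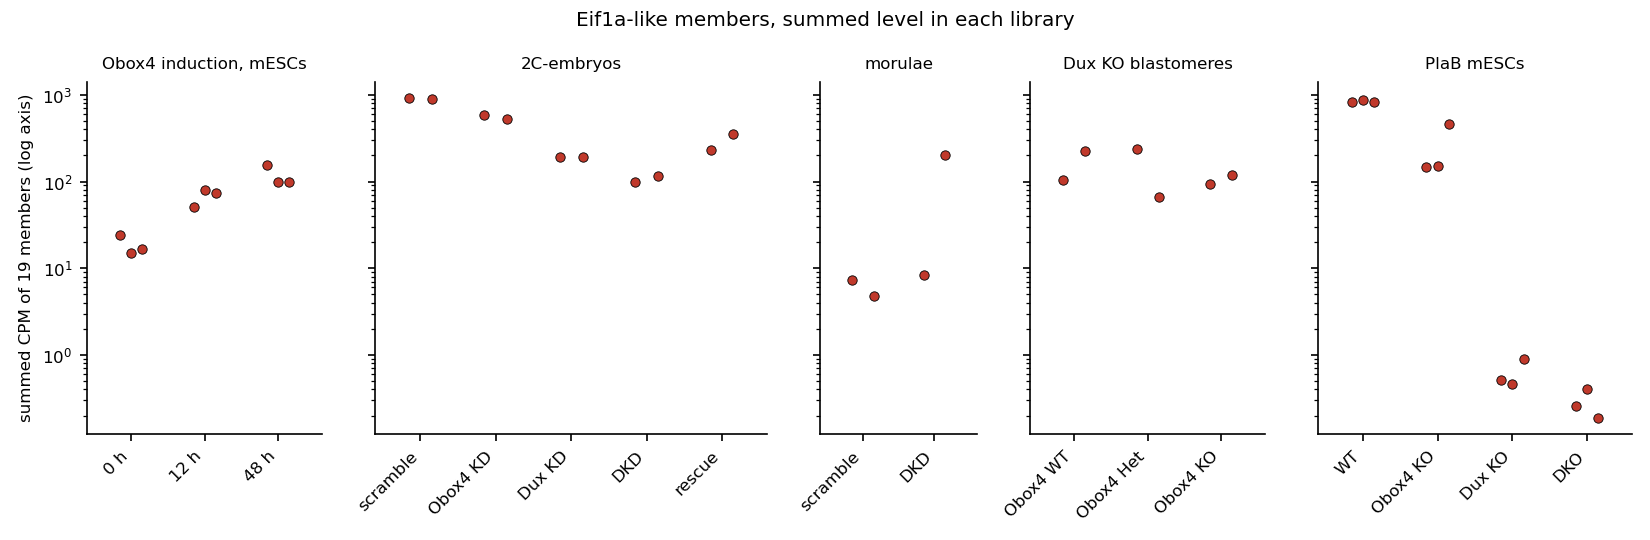
Summed CPM of the 19 Eif1a-like members in each library (y axis, log scale) by group (x axis) in the 5 RNA-seq experiments, which were scaled separately. The sum spans 15.1 to 153.8 CPM in the induction series and 99.7 to 930.2 CPM in 2C-embryos, and falls below 1 CPM in all 6 PlaB libraries that lack Dux.

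PlaB mESCs without Dux had almost no reads of the cluster. The summed CPM of the Eif1a-like members was 823.1, 879.0 and 830.5 in WT, 147.4, 150.9 and 456.2 in Obox4 KO, 0.520, 0.465 and 0.906 in Dux KO and 0.256, 0.409 and 0.186 in DKO. WT, Obox4 KO and Dux KO did not overlap, while the 2 groups without Dux were both close to 0. Gm8300 had 168.1, 184.5 and 184.6 CPM in WT, 34.6, 35.2 and 98.0 CPM in Obox4 KO, 0.130, 0.116 and 0 CPM in Dux KO and 0 CPM in all 3 DKO libraries. Its mean in WT was 2184 times that in Dux KO, 3.20 times that in Obox4 KO and at least 4843-fold higher than in DKO, with a floor of 3 reads over that group. Gm5662 had 165.6, 179.6 and 157.8 CPM in WT, 31.4, 33.6 and 89.7 CPM in Obox4 KO, 0.0433, 0.232 and 0.124 CPM in Dux KO and 0.128, 0.204 and 0 CPM in DKO. Gm5039 had 172.1, 187.9 and 170.5 CPM in WT, 30.5, 28.3 and 107.1 CPM in Obox4 KO, 0.152, 0 and 0.124 CPM in Dux KO and 0, 0.102 and 0.186 CPM in DKO. In each of these genes Obox4 KO library 3 lay between WT and the other Obox4 KO libraries. Gm8332 had 91.9, 92.9 and 79.3 CPM in WT, 14.3, 13.7 and 36.8 CPM in Obox4 KO, and 0 CPM in all DKO libraries, at least 2381-fold lower than WT.

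With Dux KO, 25 of 33 tested members were called, all lower, against 4.7% of all genes lower, and 16 of the 17 tested Eif1a-like members were among them, the exception being Gm8607. Since reads in Dux KO were at or near 0, the fitted fold changes depend on the prior count and give no bound. The members with the largest were Gm4027, with 30.0, 31.1 and 26.9 CPM in WT and 0 CPM in all 3 Dux KO libraries (at least 1431-fold lower, adjusted p = 2.7e-06), Gm8300 (adjusted p = 1.2e-06), Gm2022 (adjusted p = 3.7e-06) and Gm5039 (adjusted p = 8.2e-07). With DKO, 28 of 33 were called, all lower, against 8.79% of all genes lower, including the 17 tested Eif1a-like members, and the largest were Gm8300 (adjusted p = 9.5e-07), Gm8332 (1.6e-06), Gm2022 (3.8e-06) and Gm2035 (5.4e-06). DKO against Dux KO, where the cluster was already near 0, called only Gm8655, a row of the Gm21559 family with 0.714, 0.561 and 0.783 CPM in Dux KO and 0.0640, 0.0511 and 0.372 CPM in DKO (log2 fold change -2.63, SE 0.60, adjusted p = 0.0074), while 2% of all genes were called lower. A further loss of Eif1a-like RNA in DKO was not detectable at this depth. Obox4 RNA was itself near 0 in Dux KO mESCs, so DKO against Dux KO does not show the loss of an expressed Obox4. DKO against Obox4 KO called 19 members, all lower, 14 of them Eif1a-like (2.74% of all genes lower), led by Gm8300 (adjusted p = 2.0e-05), Gm8332 (4.4e-05), Gm2022 (0.00011) and Gm2035 (0.00017).

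With Obox4 KO, 13 of 33 were called, all lower, against 3.96% of all genes lower. They were 8 Eif1a-like members, with Gm8332 at a log2 fold change of -2.03 (SE 0.40, adjusted p = 0.0044) and Gm8300 at -1.68 (SE 0.39, adjusted p = 0.0093), and 5 others. Gm18620 had 0.752, 0.885 and 1.06 CPM in WT and 0 CPM in Obox4 KO (adjusted p = 0.00039). Gm8655 had 2.02, 2.63 and 1.43 CPM in WT and 0.0544, 0.124 and 0.0606 CPM in Obox4 KO (log2 fold change -4.55, SE 0.54, adjusted p = 0.00010). Gm18632 had 3.07, 3.38 and 2.55 CPM in WT and 0.218, 0.124 and 0.242 CPM in Obox4 KO (-3.96, SE 0.36, adjusted p = 2.0e-05). In these 3 genes of low level Obox4 KO library 3 did not stand apart, unlike in the Eif1a-like members. Gm1995 had 106.9, 111.7 and 108.9 CPM in WT and 9.90, 9.88 and 29.9 CPM in Obox4 KO (-2.72, SE 0.42, adjusted p = 0.00061), and Gm7104 had 26.7, 26.2 and 28.2 CPM in WT and 2.34, 1.82 and 8.84 CPM (-2.65, SE 0.56, adjusted p = 0.0045). The count for Obox4 KO depended on single libraries: it was 22 without Obox4 KO library 3, and 4 or 5 without any one of the other 2 Obox4 KO libraries or any one WT library. Leaving out library 3 of both Obox4 KO and DKO gave 24 called members.

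Gm1995 and Gm7104 thus differed between the systems. In 2C-embryos Gm1995 kept 76.5 CPM or more in both DKD libraries, while in PlaB mESCs it was at 0.0774 to 0.217 CPM in Dux KO and at 0 to 0.372 CPM in DKO. The knockdowns and knockouts, and the scaling, differ between these experiments, and the difference was not tested. Oogenesin genes were low in every PlaB library: their summed CPM was 1.31 to 1.56 in WT PlaB mESCs against 643.7 or more in every 2C library, and 0 to 0.186 in Dux KO and DKO. Oog1 had 0.120, 0.376 and 0.531 CPM in WT PlaB mESCs and 0 CPM in the 3 Dux KO libraries.

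Marker sums moved with genotype in PlaB mESCs. The 7 morula and trophectoderm markers summed to 265.7 to 274.0 CPM in WT, 975.7, 981.6 and 2371 CPM in Obox4 KO, 635.5 to 651.8 CPM in Dux KO and 3735 to 4653 CPM in DKO. The 10 pluripotency markers summed to 5451 to 5527 CPM in WT, 3111 to 3823 CPM in Obox4 KO, 4302 to 4335 CPM in Dux KO and 2771 to 3428 CPM in DKO, and the fibroblast markers reached 34.3 CPM in DKO library 3 against 13.4 and 13 CPM in the other DKO libraries. Their part in the Eif1a-like values was not tested.

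In morulae, the scramble libraries held few Eif1a-like reads and the 2 DKD libraries disagreed. The summed CPM was 7.23 and 4.73 in scramble, 8.37 in DKD library 1 and 203.6 in the library labelled DKD 2. Gm8300 had 0.364 and 0.443 CPM in scramble and 1.25 and 35.4 CPM in the libraries labelled DKD, and Gm5662 had 4.08 and 2.17 CPM in scramble and 2.71 and 45.5 CPM. Gm1995 had 7.18 and 4.61 CPM in scramble and 22.2 and 37.1 CPM in the libraries labelled DKD. In Gm1995 and Gm8300 both libraries labelled DKD were above both scramble libraries. The pluripotency markers summed to 738.2 CPM in the library labelled DKD 2 against 1873 CPM in DKD 1, and the maternal markers to 123.1 against 73.2 CPM. The edgeR fit recovered only 22% of 4-fold and 36% of 8-fold changes simulated in morulae. A call of 0 thus does not show that levels were alike. At an unadjusted edgeR p under 0.05 were 13 of 28 members, against 3941 of all 22142 genes. In edgeR 0 of 28 tested members were called, as for all genes (0%), and DESeq2 called 7. The count was 30 without DKD library 1 and 4 without the library labelled DKD 2, each with a lone DKD library whose spread is assumed to be that of scramble.

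In single blastomeres, which all lacked Dux, the Eif1a-like sum was 103.2 and 227.4 CPM with Obox4 WT, 238.1 and 66.6 CPM with Het and 93.2 and 119.1 CPM in the libraries labelled Obox4 KO. The groups overlapped. Gm8300 had 9.39 and 22.5 CPM, 35.6 and 0.776 CPM, and 9.04 and 23.2 CPM in the same order, so single cells of 1 genotype differed more than the genotypes did. In edgeR 0 of 41 members were called for Het and 0 for KO (0% of all genes in both), and DESeq2 called 0 for Het and 3 for KO. At an unadjusted edgeR p under 0.05 were 0 and 6 members, against 532 and 1388 of all 19182 genes. The edgeR fit recovered only 14% of 4-fold and 35% of 8-fold changes simulated for Het against WT. A call of 0 thus does not show that levels were alike. Without the library labelled Obox4 KO 1 edgeR called 3, from a lone KO library. Of the members outside the Eif1a-like family, Gm16381 had 18.4 and 20.1 CPM with WT, 29.3 and 8.96 CPM with Het and 0.163 and 0.167 CPM with KO (log2 fold change -6.84, SE 1.21, adjusted p = 0.18), and Gm1995 had 68.3 and 104.9 CPM, 48.4 and 49.1 CPM, and 15.5 and 8.17 CPM (-2.87, SE 0.51, adjusted p = 0.18). In both genes the 2 KO libraries lay below all others, which the adjusted test did not call. Oog1 had 398.4 and 401.8 CPM with WT, 400.8 and 407.3 CPM with Het and 652.4 and 707.9 CPM with KO (0.77, SE 0.23, adjusted p = 0.46). Gm2042 had 831.6 and 742.3 CPM and Gm10436 751.8 and 993.5 CPM in KO, above the 470.9 to 525.6 CPM and 558.8 to 578.3 CPM of the other 4 libraries. Reads of near-identical copies were split in this table.

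Other genes of translation initiation were called at about the share of all genes or less. Of a list of 52 such genes, 51 were matched and 49 to 51 tested per experiment. In the induction series edgeR called 0 of 51 at 12 h and at 48 h against 0 h, and DESeq2 called 0. At an unadjusted edgeR p under 0.05 were 2 and 4 of them, against 2811 and 4564 of all 18625 genes. In 2C-embryos 21 and 22 of 50 were at an unadjusted edgeR p under 0.05 with Obox4 KD and Dux KD. Of all 23085 genes 4437 and 7306 were, a smaller share. At the call thresholds DESeq2 called 0, and edgeR called 0 of 50 with Obox4 KD and 0 with Dux KD. It called 3 with DKD, all higher, where 8.42% of all genes were higher: the recycling factor Abce1 (log2 fold change 1.19, SE 0.11, adjusted p = 3.6e-07), Eif2b5 (1.11, SE 0.11, adjusted p = 4.8e-07) and Eif3g (1.25, SE 0.14, adjusted p = 2.5e-06). Eif1a, the autosomal gene that gave the cluster its name, had 24.8 and 22.4 CPM in scramble and 16.9 and 15.1 CPM in DKD (-0.56, SE 0.15, adjusted p = 0.0075), which passed the p but not the fold threshold. Eif1 (-0.17, adjusted p = 0.041), Eif1b (-0.30, adjusted p = 0.047), Eif1ax (-0.18, adjusted p = 0.17) and Eif1ad (0.08, adjusted p = 0.60) had smaller differences with DKD.

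In PlaB mESCs, Eif1ax had 109.1, 109.3 and 105.8 CPM in WT, 39.9, 36.8 and 55.6 CPM in Obox4 KO, 69.3, 65.9 and 70.1 CPM in Dux KO and 48.4, 46.1 and 22.9 CPM in DKO. It was the 1 of 51 listed genes called with Obox4 KO, where 3.96% of all genes were lower (log2 fold change -1.30, SE 0.23, adjusted p = 0.0014), and in Dux KO, where the Eif1a-like copies were nearly absent, its log2 fold change was -0.66 (SE 0.23, adjusted p = 0.065). With Dux KO only Eif4e1b, an oocyte form of the cap-binding protein, was called (-2.54, SE 0.39, adjusted p = 0.00064). DKO called 5 of 51 lower, close to the 8.79% of all genes, among them Eif2s2 (-1.25, SE 0.17, adjusted p = 8.8e-05), Eif5 (-1.37, SE 0.20, adjusted p = 0.00015), Eif1ax (-1.45, SE 0.23, adjusted p = 0.00031) and Eif4e1b (-2.22, SE 0.41, adjusted p = 0.0010), and 1 higher, Eif4e3 (2.04, SE 0.43, adjusted p = 0.0023), which was also the 1 called in DKO against Dux KO (1.77, SE 0.41, adjusted p = 0.0086). Eif1a had 198.5, 197.2 and 201.6 CPM in WT and 191.9, 189.2 and 102.5 CPM in DKO (-0.30, SE 0.21, adjusted p = 0.27). With DKO the log2 fold change was -0.70 (SE 0.09, adjusted p = 5.0e-05) for Eif1, -0.91 (adjusted p = 0.020) for Eif1b and -0.03 (adjusted p = 0.89) for Eif1ad.

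Binding of the factors was read from peaks called in each replicate. A peak of 3xFLAG-OBOX4 lay within 3000 bases of the row start of 27 of the 83 members in at least 2 of the 3 lists, among them 9 of the 19 Eif1a-like members, and 17.2% of 55364 gene rows had one. For DUX there was 1 list, and 8 members had a peak, 5 of them Eif1a-like (Gm8300, Gm2016, Gm2022, Gm8332 and Gm5662) and 3 of the Gm3742 family, against 0.883% of all rows. Neighbouring rows can share a peak, here and among all rows. The 3 Gm3742-family rows, Gm18626, Gm48560 and Gm48561, each shared a DUX peak with an Eif1a-like row, so the 8 are not separate binding sites. The DUX peak counted for Gm8300 lay inside the gene, at chr12:87517155-87517401. That of Gm2022 began at its coding-exon row, downstream of its RefSeq start. No replicate check can be given for DUX. Within 1000 bases the OBOX4 count was 9 of 83, 4 of them Eif1a-like, while 13.2% of all rows had a peak, and the DUX count was 7, against 0.573%.

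The 3 highest OBOX4 peaks of the window in each list had their summits about 3 kb upstream of Eif1a-like starts, inside ORR1A2-int, the internal part of an LTR retrotransposon of the MaLR class. Distances here are from the RefSeq start of the transcript where there is one, since several count rows cover only the coding exon. Upstream of Gm2016 the 3 OBOX4 lists had summits at -3119, -3134 and -3119 bases with enrichments of 116, 95.1 and 88.8 over background. Upstream of Gm8332 all 3 were at -3125 bases with enrichments of 111, 105 and 98.4, and upstream of Gm5662 they were at -3240, -3210 and -3206 bases with 100, 103 and 80.1. Gm8300 had lower ones, at -3026, -3042 and -3036 bases, with 33.3, 25.7 and 24.7. For each gene the 3 lists put the summit at nearly the same position. All 3 were aligned in the same way, and these summits lie in repeats of a region of near-identical copies. How reads that match several copies were placed was not examined. Which copy holds a peak, and how high it is, is therefore less certain. Other high peaks lay in related repeats, with enrichments of 93.8, 87.9 and 78.4 at a summit in ORR1A3-int and of 41.9, 40.7 and 34.0 at one in ORR1A0-int. Of the 34 summits of replicate 1 in the window, 8 lay in ORR1A2-int, 6 in RLTR13B2 and 5 in no annotated repeat.

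A second, lower group of summits lay close to the start. They were at -161, -186 and -187 bases of Gm8300 with enrichments of 10.8, 8.65 and 10.5, at -159, -109 and -158 bases of Gm5662 with 14.5, 11.1 and 13.7, and at -210, -185 and -210 bases of Gm2035 with 22.1, 25.4 and 23.6. For Gm2035 this was the higher one, as its ORR1A2-int summit had 3.55, 7.27 and 6.53. The near-start summits of Gm2035 in all 3 lists and of Gm8300 in lists 2 and 3 lay in the repeat B1_Mus2. That of Gm8300 in list 1 lay in no annotated repeat. Those of Gm5662 lay in the repeat MTE2a in list 2 and in no annotated repeat in lists 1 and 3. The DUX list had summits at -3157 and 580 bases of Gm2016 with enrichments of 8.51 and 10.0, at 406 bases of Gm8332 with 7.01 and at -89 bases of Gm5662 with 8.11. These are summits from 5000 bases before to 1000 bases after the start. Further inside, the DUX list had a peak of 13.4 with its summit in the coding-exon row of Gm8332. It also had peaks of 6.23 inside Gm2016 and 5.18 inside Gm5662. Enrichments of the 2 factors come from different libraries and are not compared.

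**Figure D4:**
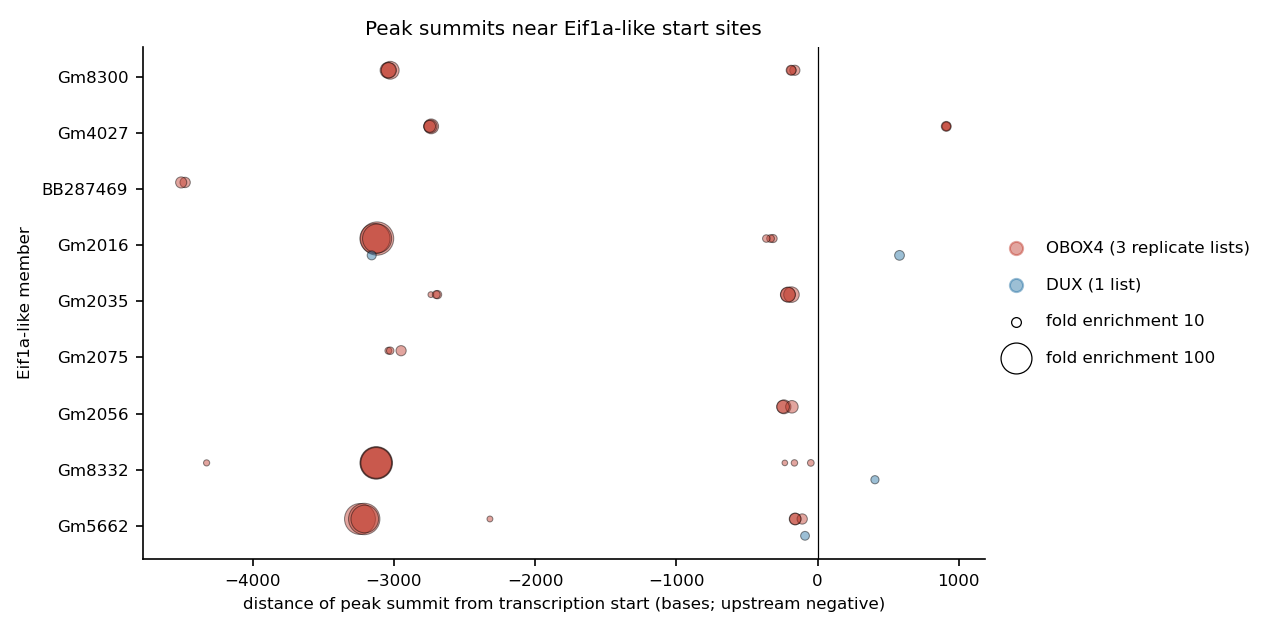
Distance of peak summits from the start (x axis, bases, negative upstream) for the 9 Eif1a-like members with a summit from 5000 bases before to 1000 bases after the start (y axis); red points are the 3 OBOX4 lists, blue points the 1 DUX list, and point area is proportional to the enrichment over background. Large red points line up near 3000 bases upstream of Gm2016, Gm8332 and Gm5662, with smaller ones within 400 bases of several starts.

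The sequence at the 4 upstream summits is shown because these lay at a like distance before 4 of the Eif1a-like members with the most reads, and 3 of them were the highest of the window. Each line is 121 bases of GRCm38.p6 centered on the summit of replicate 1, read on the strand of the gene. Capitals mark CTGGGAT, the 7 bases that open the OBOX4 motif derived by the study, searched on both strands.
Gm8300 chr12:87511230-87511350 (plus strand): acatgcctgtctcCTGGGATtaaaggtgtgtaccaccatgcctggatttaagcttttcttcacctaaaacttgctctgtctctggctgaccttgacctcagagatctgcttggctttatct
Gm2016 chr12:87870893-87871013 (plus strand): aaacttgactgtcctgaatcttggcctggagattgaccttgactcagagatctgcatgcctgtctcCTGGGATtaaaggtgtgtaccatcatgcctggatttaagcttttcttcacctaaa
Gm8332 chr12:88255935-88256055 (minus strand): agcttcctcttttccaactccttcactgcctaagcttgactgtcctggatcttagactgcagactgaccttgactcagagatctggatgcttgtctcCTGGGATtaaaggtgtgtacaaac
Gm5662 chr12:88277677-88277797 (minus strand): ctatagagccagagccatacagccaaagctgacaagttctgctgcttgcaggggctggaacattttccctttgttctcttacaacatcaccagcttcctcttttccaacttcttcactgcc
The motif occurred once in the first 3 and not in that of Gm5662. It was in 11 of the 34 summit stretches of replicate 1 in the window (32.4%) and in 4.68% of the 6196 consecutive stretches of 121 bases in the window. The study derived the motif from the highest peaks of this same OBOX4 CUT&RUN. A higher share at its summits was thus built in, and is no separate evidence of binding.

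The 250 bases before the start of Gm8300 and of Gm5662, where the lower OBOX4 summits lay, are shown in the same way.
Gm8300 chr12:87514066-87514315 (plus strand): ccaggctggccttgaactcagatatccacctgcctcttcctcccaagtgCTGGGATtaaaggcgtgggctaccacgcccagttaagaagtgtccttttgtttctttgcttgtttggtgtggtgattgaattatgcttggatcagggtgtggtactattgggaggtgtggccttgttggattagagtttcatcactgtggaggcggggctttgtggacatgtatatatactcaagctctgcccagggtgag
Gm5662 chr12:88274498-88274747 (minus strand): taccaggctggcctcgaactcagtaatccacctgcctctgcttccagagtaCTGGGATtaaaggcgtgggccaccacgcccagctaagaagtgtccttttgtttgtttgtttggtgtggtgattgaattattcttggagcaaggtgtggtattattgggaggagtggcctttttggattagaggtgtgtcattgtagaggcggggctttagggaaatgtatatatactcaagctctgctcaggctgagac
Each of them held CTGGGAT once, as did the 250 bases before Gm2016. Of the 19 Eif1a-like starts, 8 had it (42.1%): Gm8300, BB287469, Gm2016, Gm2022, Gm2035, Gm2075, Gm8332 and Gm5662. Of 32851 stretches before RefSeq starts of all genes, 5.16% had it. The copies are near-identical, so their matches are not independent, and a match describes the letters only. Several near-start summits lay in the repeat B1_Mus2, and whether the matches before the starts belong to a shared repeat was not tested.

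The histone marks at these starts differed between treatments and lines. H3K4me3, a mark of active starts, was within 3000 bases of 0 of the 19 Eif1a-like row starts in untreated WT mESCs in at least 2 of 3 lists and of 8 in WT mESCs with PlaB. It was at 0 of the 19 in Obox4 KO mESCs without PlaB and at 0 with PlaB. The 8 were Gm4027, BB287469, Gm2016, Gm8332, Gm5662 and Gm5039 in all 3 lists, and Gm8300 and Gm2022 in 2 lists. Over all 83 members the counts were 8 (40.5% of all rows), 15 (35.9%), 6 (37.9%) and 0 (36.4%) in the same order, so the whole cluster was below the background of all rows. The share of all rows with H3K4me3 was nearly the same with PlaB in WT and Obox4 KO mESCs. The call is a count of lists and no test was run on it.

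H3K27ac, a mark of active enhancers and promoters, was near 0 of the 19 in untreated WT mESCs, 7 in WT with PlaB, 2 in Obox4 KO without PlaB and 2 with PlaB. The 2 were Gm2016 and Gm5662 in both conditions, with peaks in all 3 lists with PlaB and in 2 without it. Over all 83 members it was near 14 (23% of all rows), 23 (21.2%), 20 (23.6%) and 18 (22%). H3K27me3, a mark of Polycomb repression, was near 4 members in untreated WT mESCs (22.1% of all rows), namely Gm1995, Gm7104, Gm18627 and Gm21039, and near 0 in WT with PlaB (20.9%), in Obox4 KO without PlaB (24%) and in Obox4 KO with PlaB (24.5%). None of its peaks was near an Eif1a-like start in 2 lists.

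**Figure D5:**
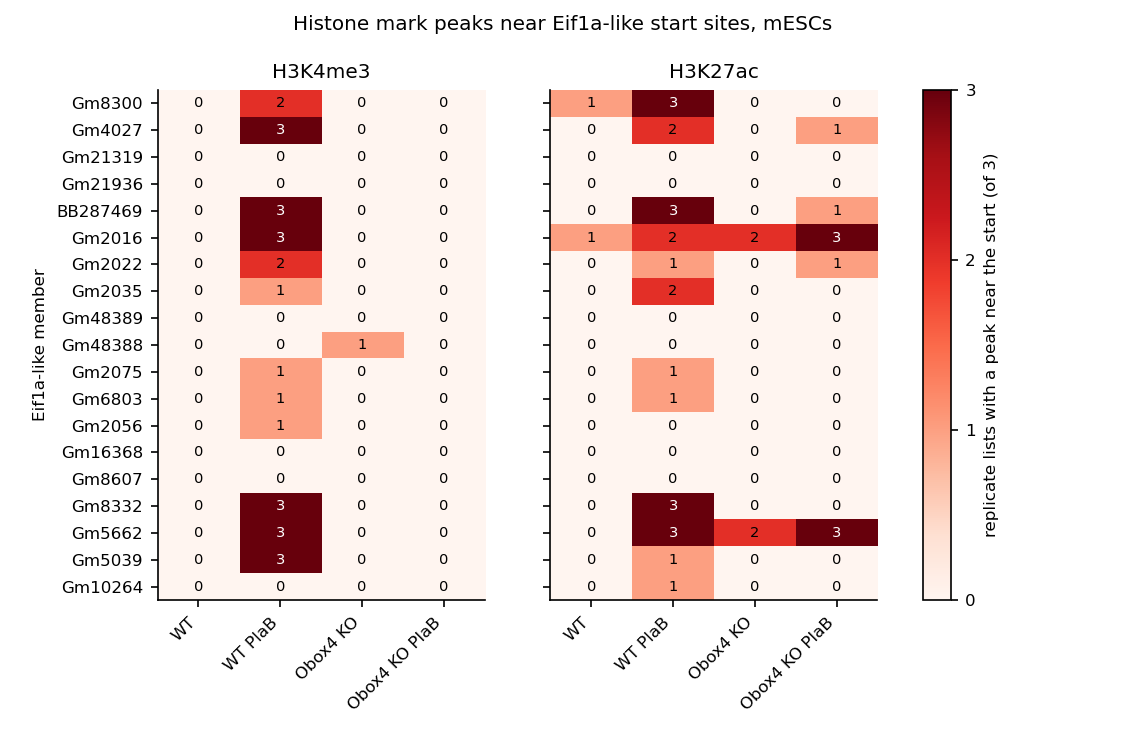
Number of replicate peak lists, of 3, with an H3K4me3 or H3K27ac peak within 3000 bases of the row start, for the 19 Eif1a-like members (y axis, in genome order) in WT and Obox4 KO mESCs without and with PlaB (x axis). H3K4me3 is dense only in WT with PlaB, where 6 members have it in all 3 lists, and H3K27ac in Obox4 KO with PlaB has 3 lists at Gm2016 and Gm5662 alone.

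The tests of whether the effects of losing both factors add up called 1 member each. In 2C-embryos the difference made by the anti-Obox4 ASO was further below 0 for BB287469 when Dux was also targeted, by an interaction of -1.40 on the log2 scale (SE 0.27, adjusted p = 0.0099), and 0.169% of all genes were called in that direction. BB287469 had 15.2 and 16.6 CPM in scramble, 13.9 and 15.5 CPM in Obox4 KD, 5.20 and 4.97 CPM in Dux KD and 1.89 and 1.64 CPM in DKD. None of the 8 fits that left out a library called it. For Gm8300 the interaction was -0.22 (SE 0.22, adjusted p = 0.69) and for Gm5662 -0.29 (SE 0.17, adjusted p = 0.44), neither of them called. In PlaB mESCs the 1 called member was Gm18632, of the Gm3742 family, with an interaction of 3.09 (SE 0.50, adjusted p = 0.0051), where 0.793% of all genes were called in that direction, and 3 of 12 fits that left out a library called it. It had 3.07, 3.38 and 2.55 CPM in WT, 0.218, 0.124 and 0.242 CPM in Obox4 KO, 0.952, 0.852 and 0.989 CPM in Dux KO and 0.704, 0.307 and 0.559 CPM in DKO. Obox4 RNA was already near 0 in Dux KO mESCs, so only the comparison in Dux WT removed an expressed Obox4.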

How the data were processed

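Gene and repeat counts of 41 RNA-seq libraries and CUT&RUN peak lists were used. Per the labels and methods, the authors trimmed reads with fastp 0.23.2, aligned RNA reads to GRCm38.p6 with STAR 2.7.9a and used featureCounts 2.0.1 for counting. The deposited gene tables hold raw counts of uniquely mapped reads, and the deposited repeat tables hold expected counts (fractions of reads), in which multi-mapping reads were split by the authors over genes and mm10 repeats, rounded here to whole numbers. The blastomere tables deposited by the authors hold fractional counts without use of strand. Gene models are those of the tables. The authors aligned CUT&RUN reads with Bowtie2 2.4.1 and called peaks for each replicate with MACS3 3.0.0a6. The deposited lists give the fold enrichment over background as a ratio and the q-value as −log10.

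Counts were tested with edgeR 4.0.16 (R 4.3.3), filterByExpr and TMM, in one quasi-likelihood model for all groups of an experiment. Calls needed a Benjamini-Hochberg adjusted p (all genes tested) of 0.01 or less and a log2 fold change of 1 or more in size. The SE was derived from the quasi-likelihood F. DESeq2 1.42.0, its size factors, no filter on low counts, the repeat table, the replicate number as a block and leaving out each library were alternatives. Labels give no separate cultures for libraries of 1 group, so p-values reflect only how far these libraries spread. The paper calls the 2C pools and the 48 h induction libraries biological replicates. Among the other mESC and the morula libraries the spread may be technical. The scripts were tested on simulated counts. They recovered 60 to 76% of 4-fold changes in the induction, 2C and PlaB experiments, and fewer in morulae and blastomeres, as given above. Families were built from blastn 2.17.0 hits of at least 70% identity over at least 50% of the shorter row. Folds against groups without reads used a floor of 3 reads over the group, which covers counting error only. No coverage of peaks was tested.

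The members and lists were chosen with earlier results of these data known. Values in each library are given for the 10 members with the highest mean CPM in 2C-embryos and for Gm16381, and each comparison names up to 4 called members with the largest absolute log2 fold change in each direction. Of the translation initiation list, Eif1a, Eif1ax, Eif1ad, Eif1, Eif1b and up to 4 called genes with the smallest p were named. BB287469, Gm48388, Gm10264 and other members named outside this rule were chosen after their values were seen. Cumulus, sperm and blood marker lists were also summed, and are given with the closing observations. Gene classes and start sites are from RefSeq for GRCm38.p6.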

Additional observations from a re-analysis of the deposited data

Results flagged for a closer look

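In 2C-embryos the test of the difference between the effect of the anti-Obox4 ASO with and without the anti-Dux ASO called 1 of the 57 tested members. That member was BB287469, with a difference of -1.40 on the log2 scale (SE 0.27, edgeR adjusted p = 0.0099). With split multi-mapping reads the difference was -0.55 (adjusted p = 0.15), and unique reads were 12.8% of the split reads of this gene. In PlaB mESCs the same kind of test, Obox4 KO in the Dux KO line against Obox4 KO in the WT line, called 1 of 33 members. It was Gm18632, with a difference of 3.09 on the log2 scale (SE 0.50, edgeR adjusted p = 0.0051), since its CPM was below that of WT in both single KO lines and not further below in DKO. Both counts fell to 0 with the replicate number as a block. No group had enough libraries for the check on single samples that stand apart.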

How the results depend on the processing

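Counts of called members in Dux KD (23), DKD (27), rescue (22 against scramble and 18 against DKD), Dux KO (25) and DKO (28) stayed within 1.5 times their value under every alternative run, with ranges of 16 to 21, 23 to 25, 18 to 23, 12 to 17, 21 to 23 and 23 to 26 when single libraries were left out. Leaving out a library gave 1 to 7 at 12 h, 9 to 11 at 48 h, 0 to 1 for 48 h against 12 h, 0 to 1 for Obox4 KD, 2 to 5 for DKD against Dux KD, 0 for the 2C interaction, 2 to 30 in morulae, 0 for Het and 0 to 4 for KO blastomeres, 4 to 22 for Obox4 KO in PlaB, 0 to 1 for DKO against Dux KO, 15 to 21 for DKO against Obox4 KO and 0 to 2 for the PlaB interaction. With the repeat table the counts became 1 for 48 h against 12 h, 1 for Obox4 KD, 0 for the 2C interaction, 0 for DKO against Dux KO and 30 for DKO against Obox4 KO. Without a filter they became 2 for 48 h against 12 h, 8 for DKD against Dux KD, 4 and 2 for the 2C and PlaB interactions, 18 in morulae and 3 in KO blastomeres. DESeq2 gave 2 for 48 h against 12 h, 1 for Obox4 KD, 3 for the 2C interaction, 7 in morulae and 3 in KO blastomeres, and its size factors in edgeR gave 0 for the 2C interaction. Same-numbered libraries did not deviate together in every pair, so the numbers do not pair the libraries. With the replicate block the counts were 1 at 12 h, 9 at 48 h, 0 for both interactions and 0 for DKO against Dux KO, and the block moved no other count past 1.5 times. After seeing the data, fits without the rescue libraries (2 for the 2C interaction) and without library 3 of Obox4 KO and DKO (24 for Obox4 KO and 3 for the PlaB interaction) were added. Within 1000 bases of the start, 9 members had an OBOX4 peak in place of 27 (13.2% of all rows) and 5 an H3K4me3 peak in untreated WT in place of 8 (36%). The cause of these shifts was not tested. Depth limits members near 0, and copies that share sequence limit single-gene values.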

Other observations

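Marker lists of other cell types had few reads in embryos. In 2C-embryos the 8 cumulus and granulosa markers summed to 9.12 and 8.51 CPM in scramble, 5.88 and 5.94 CPM in Obox4 KD, 5.83 and 5.42 CPM in Dux KD, 5.11 and 4.79 CPM in DKD and 8.94 and 6.15 CPM in rescue. The morula and trophectoderm markers summed to 65.8 and 61.4 CPM in scramble and to 89.2 and 88.1 CPM in DKD. The 4 sperm markers summed to 1.08 to 3.15 CPM and the 3 blood markers to 1.14 to 2.64 CPM over the 10 2C libraries.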
